A study of Mus musculus with 2 samples.

Results

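The matrix metalloproteinases (MMPs), the ADAMs, the ADAMTSs and the tissue inhibitors of metalloproteinases (TIMPs) were followed in the salivary glands of NOD/ShiLtJ and CD1 mice. Every gene symbol in the deposited feature lists that begins with Mmp, Adam, Adamts or Timp followed by a digit was taken. That gave 81 of 50768 features, made up of 24 MMPs, 34 ADAMs, 19 ADAMTSs and 4 TIMPs. The 24 MMPs include *Mmp24os1*, by its name an opposite-strand transcript of *Mmp24*, which is part of every MMP sum. It made up 49.7% of the MMP UMIs of T-like and 86.9% of those of NK-like barcodes (lineages defined below) in NOD.

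The study asked whether the salivary glands of NOD/ShiLtJ mice become fibrotic, and compared their cells with those of CD1, an outbred strain used as the control. NOD/ShiLtJ is an inbred mouse that develops a lymphocytic sialadenitis and diabetes. The study does not say whether the pooled NOD mice were diabetic. Glands came from untreated females aged 20 weeks, and the submandibular glands of each strain were pooled with the adjacent sublingual glands into 1 library of single-cell RNA sequencing (10x Genomics droplets). The labels give 3 mice per pool and digestion with Liberase, whereas the study's methods give 4 mice and collagenase with hyaluronidase, and both name dispase. Both pools were depleted of epithelial and red cells with antibodies to EpCAM and Ter119, freed of dead cells and labelled as the same batch. The shares of the cell types given below are those left after this depletion.

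MMPs are zinc-dependent proteases that cut collagens, elastin and other parts of the extracellular matrix, either secreted or held at the cell membrane. ADAMs are membrane proteins of which some, above all ADAM10 and ADAM17, cut other membrane proteins off the cell surface (shedding) and others have no protease activity and serve in adhesion. ADAMTSs are secreted relatives that cut proteoglycans such as versican and aggrecan or trim procollagens, and the TIMPs block these enzymes. In salivary glands the families take part in turnover of the matrix around acini and ducts and in release of cytokines and adhesion molecules by leukocytes.

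The catalytic families share a zinc-binding site, a histidine, a glutamate, any pair of residues, a second histidine and, after a glycine or asparagine, a last histidine. The coding stretches of this site are shown for the enzymes on which the results turn, 5′ to 3′, with the 3 histidine codons in capitals. They were read from GENCODE M21 transcripts of the reference mouse (GRCm38) and are neither strain's own sequence.
Mmp16: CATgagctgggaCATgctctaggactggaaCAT
Mmp12: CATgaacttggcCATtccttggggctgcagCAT
Mmp14: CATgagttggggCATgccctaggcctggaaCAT
Mmp2: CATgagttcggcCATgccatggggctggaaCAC
Adam17: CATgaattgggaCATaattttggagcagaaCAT
Adam10: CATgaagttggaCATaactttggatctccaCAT
Adamts14: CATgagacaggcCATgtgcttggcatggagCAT
Adamts6: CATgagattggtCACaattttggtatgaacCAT
Adamts12: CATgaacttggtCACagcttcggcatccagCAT
Adamts1: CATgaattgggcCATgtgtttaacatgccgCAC

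The *Mmp16* stretch lies in exon 5 of 10 at chr4:18051748-18051780 on the plus strand, the *Mmp12* stretch in exon 5 of 10 at chr9:7352914-7352946 on the plus strand and the *Adam17* stretch in exon 12 of 20 at chr12:21336732-21336764 on the minus strand. Of the 79 members matched to GENCODE, all coding, 55 carried the site with glycine after the second histidine, and 5 ADAMTSs (*Adamts1*, *Adamts4*, *Adamts9*, *Adamts15* and *Adamts20*) carried asparagine there. The site was absent from 19 members, among them the 4 TIMPs, *Adam11*, *Adam22*, *Adam23* and *Adam3*. *Adam34l* and *Mmp24os1* were not matched.

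Barcodes with at least 500 unique molecular identifiers (UMIs, single counted RNA molecules) and 300 genes were kept, 6500.0 in NOD and 7014 in CD1. The kept barcodes held 43439635 UMIs in NOD and 49420810 in CD1, with medians of 5719.5 and 6495 UMIs, and 18 kept barcode sequences occurred in both libraries. A barcode was given a lineage where at least 3 UMIs over at least 2 markers of that lineage made up at least 75% of its marker UMIs. This gave 1895 T-like, 438 NK-like, 691 macrophage-like and 1059 endothelial-like barcodes in NOD and 118, 295, 2882 and 2882 in CD1. Markers not used for the assignment were high in each, as for *Nkg7* in NK-like barcodes (1144 and 1032 CPM) and *Ctss* in macrophage-like barcodes (3090 and 3510 CPM). Only 60 and 18 barcodes were fibroblast-like, 767 and 8 B-like, 51 and 12 plasma-like, 20 and 3 dendritic-like and 12 and 12 mural-like, and 1498 and 731 stayed unassigned. The labels call the cells stromal enriched, yet fibroblast-like barcodes made up 0.923% of NOD and 0.257% of CD1.

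Levels are given as CPM, the UMIs of a gene per 1000000 UMIs of that lineage in that library, without division by gene length. Square brackets hold exact 95% intervals, which cover counting error only. With 1 library per strain there is no replicate and no test: a difference between NOD and CD1 cannot be told apart from a difference between these 2 pools. Fewer transcripts per cell and a different mix of cells within a lineage cannot be told apart in a summed level either, so values of a lineage's barcodes within single clusters of like barcodes are set beside the results, with other barcodes of the cluster left out unless all barcodes are named. Log2 values are NOD over CD1, and 3 UMIs stand for a count of 0, which gives a bound. A fold given as at least so much rests on these 3 UMIs, and the exact 95% interval reaches a smaller fold.

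The families were found in different cells. All 81 members together held 1328 CPM over the kept barcodes of NOD and 1838 in CD1. ADAMs held 696 and 686 CPM, ADAMTSs 387 and 295, MMPs 88.4 and 318 and TIMPs 156 and 538. The ADAM level was thus alike in both libraries, while MMPs and TIMPs were lower in NOD. No UMI was found for 11 members (*Adam20*, *Adam24*, *Adam25*, *Adam26a*, *Adam26b*, *Adam34*, *Adam39*, *Adam6a*, *Adam7*, *Mmp1a* and *Mmp27*), 26 had 1 to 49 UMIs and 44 had at least 50.

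The 7 lineages with most barcodes were ranked for these 44, and smaller ones can lie higher, as the mural-like for *Timp3*. Of the 44, 23 had their highest level in fibroblast-like barcodes, 8 in endothelial-like, 6 in macrophage-like, 4 in NK-like, 2 in T-like and 1 in plasma-like barcodes. The sheddases *Adam10* and *Adam17* were found in each of these 7 lineages, with the highest levels in endothelial-like (258 CPM) and macrophage-like barcodes (295 CPM). *Timp3*, the inhibitor that binds to the matrix, held 91.7% of its UMIs in endothelial-like barcodes. *Mmp12*, the macrophage metalloelastase, held 88.2% in macrophage-like barcodes, and *Adamts14*, a procollagen N-propeptidase, held 70.3% in NK-like barcodes. *Adamts5*, an aggrecanase, held 94.5% and *Mmp2*, gelatinase A, 91.0% in fibroblast-like barcodes. *Adamts17* lay mostly outside the named lineages, with 77.6% of its UMIs in NOD and 78.1% in CD1 in unassigned barcodes. In NOD so did *Adam23* (64.0%), *Adam22* (63.3%), *Adam11* (54.9%) and *Adam12* (51.6%), and in CD1 *Adamts2* (55.4%).

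**Figure D1:**
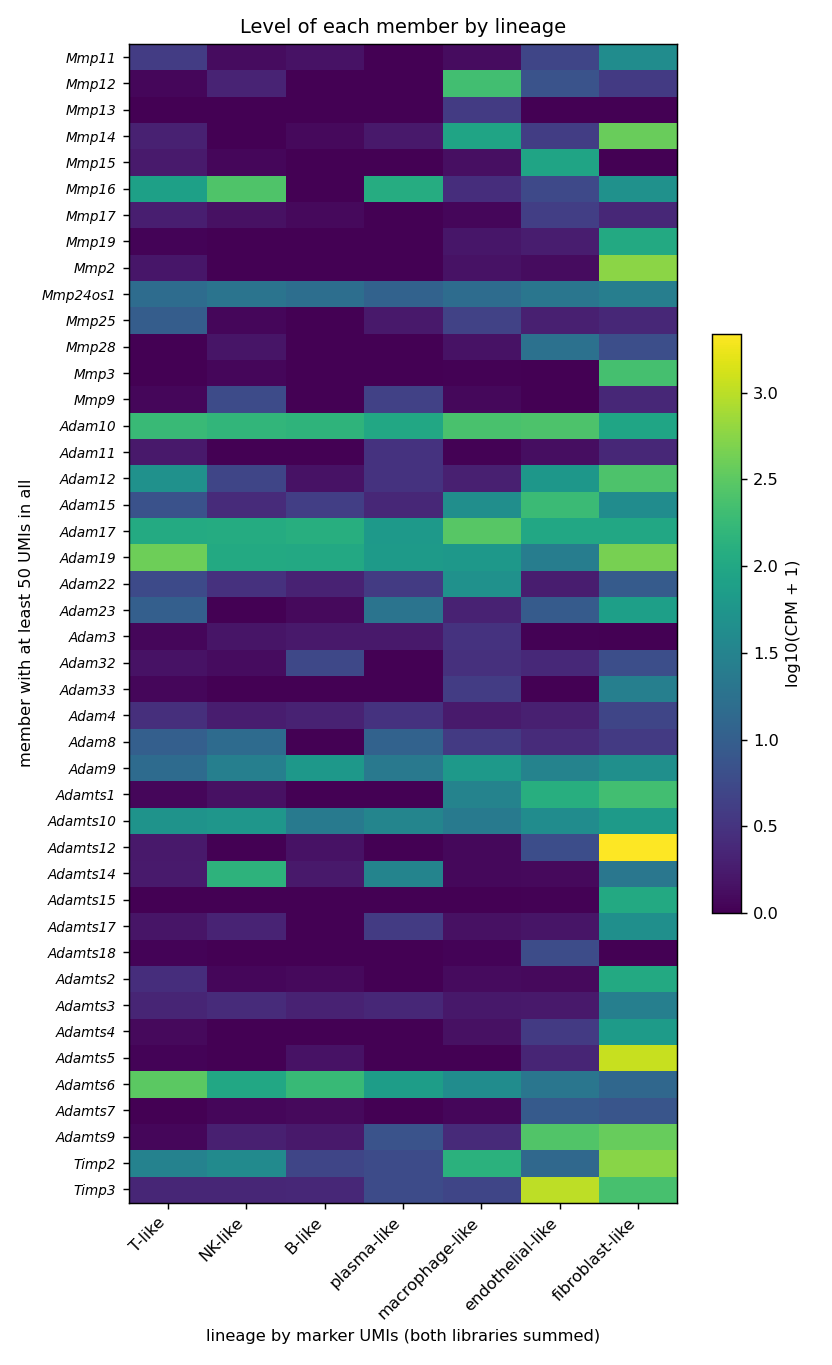
Level of each of the 44 members with at least 50 UMIs (rows) in 7 lineages (columns), both libraries summed, as the base-10 logarithm of CPM plus 1. The fibroblast-like column holds the highest of these 7 levels for 23 members, *Timp3* is brightest in the endothelial-like column, *Mmp12* in the macrophage-like column, and *Mmp16* and *Adamts14* in the NK-like column. The order for *Mmp16* depends on the sum of the libraries. In CD1 alone it was higher in T-like (1132 CPM) than in NK-like barcodes (562 CPM), and in NOD it had 0 UMIs in both.

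Much of the difference between whole libraries went with the different shares of the lineages. *Adam19*, a sheddase found in T-like barcodes, had 220 CPM over all NOD barcodes and 63.3 over all CD1 barcodes, a log2 of 1.80. With the CD1 levels weighted to the lineage mix of NOD, the log2 was 0.21. *Adamts5* moved from 2.00 to 0.04 and *Mmp2* from 2.39 to 0.27 in the same way. For *Mmp12* the log2 moved from -3.66 to -2.34, for *Timp3* from -2.004 to -0.996 and for *Adamts6* from 2.43 to 0.97, so a difference was still present with these shares held. The mix of cells within a lineage was not held. Unassigned barcodes entered as 1 group, in which the log2 was -3.20 for *Mmp12*, -3.06 for *Timp3* and 2.43 for *Adamts6*. *Mmp16* moved further from 0, from -7.16 to -9.38. Its CD1 T-like level entered this weighting at 1132 CPM, and was 110 CPM without the *Stab2* cluster described below. The weighted log2 without that cluster was not taken. The comparisons below were therefore made within lineages, for the members with at least 50 UMIs there.

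Among the MMPs, the membrane-bound *Mmp16* (MT3-MMP, which activates pro-gelatinase A) was the member furthest apart. In NK-like barcodes it had 0 UMIs in NOD and 1870 UMIs in CD1, a level of 562 CPM in CD1. It was detected in 0 of 438 NOD barcodes and in 213 of 295 CD1 barcodes (72.2% [66.7, 77.2]), and no single CD1 barcode held more than 71 UMIs. A count of 0 in NOD allows a level of up to 0.798 CPM, so the NOD level was at least 704-fold lower. In CD1, only 0.867% of endothelial-like barcodes and 0.451% of macrophage-like barcodes had a *Mmp16* UMI, at median depths of 6140.5 and 7060 UMIs against 9822 in NK-like barcodes. Empty droplets, those with 10 to 100 UMIs, held 0.20 CPM of *Mmp16* in NOD and 72.4 in CD1.

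The 2 NK-like clusters held different shares of the NK-like barcodes of each library, with 58.9% of NOD and 34.9% of CD1 in the cluster led by *Klra4* and 37.2% and 62.0% in the cluster led by *Xcl1*. *Mmp16* was absent from NOD in both. In the *Klra4* cluster it had 0 UMIs in 258 NK-like NOD barcodes and 542 CPM in 103 of CD1, at least 424-fold apart. In the *Xcl1* cluster it had 0 UMIs in 163 NK-like NOD barcodes and 579 CPM in 183 of CD1, at least 247-fold apart. Both clusters therefore showed the difference at about the same CD1 level.

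*Mmp16* was not absent from the NOD library as a whole. It had 30 UMIs there, of which 29 lay in fibroblast-like barcodes and 1 in an unassigned barcode. Its level in fibroblast-like barcodes was 48.7 CPM in NOD (12 of 60 barcodes) and 46.4 CPM in CD1 (7 UMIs in 3 of 18 barcodes). The CD1 level lay under the 72.4 CPM of empty droplets in CD1, whereas those of NOD held 0.20 CPM. The genes next to it on the reference chromosome, *Ripk2* and *Cnbd1*, had UMIs in both libraries in NK-like barcodes. *Ripk2* had 142 and 161 UMIs (log2 -0.36 [-0.69, -0.02]) and *Cnbd1* 39 and 43 (log2 -0.32 [-0.98, 0.34]). Further out, *Nbn* stood at -0.70 [-1.30, -0.12] and *Cpne3* at -0.76 [-0.98, -0.55], and *Cngb3* had 0 UMIs in both.

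**Figure D2:**
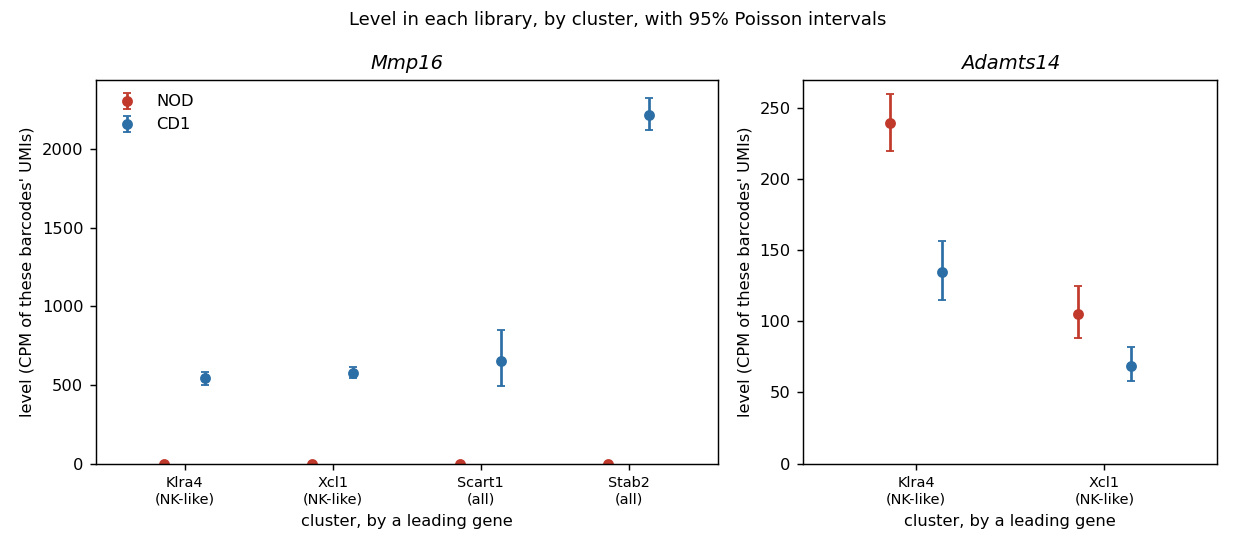
Level (CPM) of *Mmp16* in the NK-like barcodes of 2 clusters and in all barcodes of 2 others, and of *Adamts14* in the NK-like barcodes of the first 2, NOD in red and CD1 in blue, with exact 95% Poisson intervals. *Mmp16* sits at 0 in NOD and between 542 and 2220 CPM in CD1 in all 4 clusters, and *Adamts14* is higher in NOD in both clusters.

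In T-like barcodes *Mmp16* had 0 UMIs in 1895 NOD barcodes and 1047 UMIs in CD1, 1132 CPM, spread over 52 of 118 barcodes. Of the CD1 T-like barcodes, 39.8% belonged to an unnamed cluster led by *Stab2*, *Thsd4* and *Dach2*, against 1.79% of the NOD ones. In those CD1 barcodes 5 of the 10 T markers were at 0 and their summed level was 1348 CPM, against 5757 CPM in the other CD1 T-like barcodes. Without that cluster 71 CD1 and 1861 NOD barcodes were left, and *Mmp16* had 59 UMIs (110 CPM) in CD1 and 0 in NOD, at least 442-fold apart. The *Stab2* cluster itself, over all barcodes, held 2220 CPM of *Mmp16* in CD1, in 95 of 104 barcodes, and 0 UMIs in 91 NOD barcodes. *Mmp16* was itself among that cluster's leading genes. Plasma-like barcodes, too few to compare, had 0 *Mmp16* UMIs in 51 NOD barcodes and 165 in 9 of 12 CD1 barcodes. Of these plasma-like barcodes, 11 of 51 in NOD and 11 of 12 in CD1 were called doublets, at median depths of 11171 and 40813 UMIs.

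In macrophage-like barcodes the MMPs differed in opposite directions. *Mmp12* had 274 UMIs in NOD and 4737 UMIs in CD1, or 70.1 CPM and 242 CPM, a log2 of -1.79 [-1.97, -1.61]. It was found in 46 of 691 NOD barcodes and 628 of 2882 CD1 barcodes. In NOD 6.66% [4.91, 8.78] of the barcodes carried it at a median depth of 3228 UMIs, and in CD1 21.8% [20.3, 23.3] at 7060. After thinning every barcode to 500 UMIs the shares were 1.59% and 6.07%, so the lower share in NOD was also seen at equal depth. Its shares in endothelial-like barcodes, 0.189% and 0.694%, stand for the background. *Mmp14* (MT1-MMP, a membrane collagenase and activator of pro-gelatinase A) was the higher one in NOD, at 117 CPM against 81.9 CPM, a log2 of 0.52 [0.36, 0.67].

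The macrophage-like barcodes were divided differently in the 2 libraries. The cluster led by *Aif1*, of low depth, held 46.0% in NOD and 30.3% in CD1, the cluster led by *Cx3cr1* 35.8% and 57.95%, and the cycling cluster led by *Mki67* 4.05% and 4.02%. *Mmp12* was lower in NOD in each of these 3 clusters. The levels were 12.9 and 85.9 CPM in the *Aif1* cluster, 87.9 and 255 CPM in the *Cx3cr1* cluster and 38.5 and 347 CPM in the *Mki67* cluster, which held 28 and 116 macrophage-like barcodes. In an unnamed cluster with gland secretory genes such as *Scgb1b27* among its leading genes, the 48 and 131 macrophage-like barcodes held 179.99 and 231 CPM of *Mmp12*, a log2 of -0.36 [-0.96, 0.21]. For *Mmp14* the log2 was 0.64 [0.46, 0.81] in the *Cx3cr1* cluster, 0.74 [0.15, 1.29] in the *Mki67* cluster and 0.22 [-0.58, 0.97] in the *Aif1* cluster. Of the low members, *Mmp25* (MT6-MMP, a membrane enzyme of leukocytes) had 32 UMIs in NOD and 52 in CD1, a log2 of 1.62 [0.94, 2.29]. *Mmp13*, collagenase-3, had 19 and 48 UMIs and lay just inside the 2-fold limit, at 0.99 [0.14, 1.78]. The sum of all MMPs was 219 CPM in NOD, of which *Mmp14* made up 53.4%, and 349 in CD1, of which *Mmp12* made up 69.4%.

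**Figure D3:**
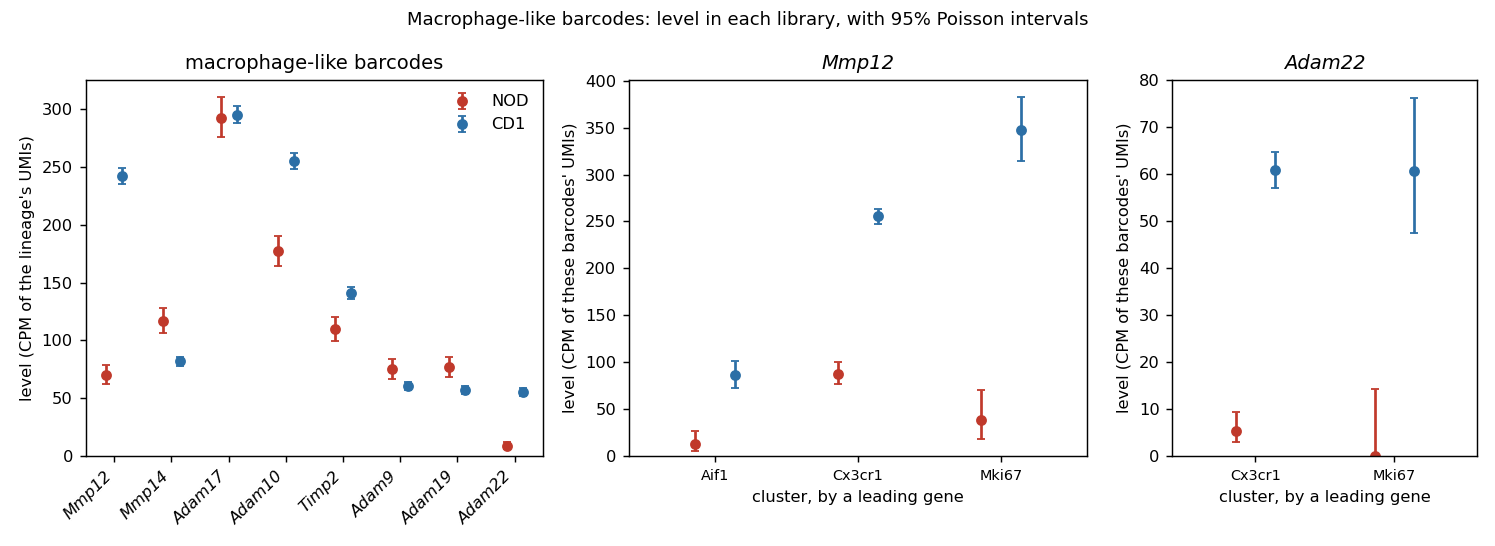
Level (CPM) in NOD (red) and CD1 (blue) with exact 95% Poisson intervals, for 8 members in macrophage-like barcodes (left), for *Mmp12* in the macrophage-like barcodes of 3 clusters (middle) and for *Adam22* in those of 2 of them (right). *Mmp12* and *Adam22* are lower in NOD in every panel, *Adam17* sits at 293 and 295 CPM, and *Mmp14* is higher in NOD.

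In endothelial-like barcodes the leading MMP was *Mmp15* (MT2-MMP), with 86.2 CPM in NOD and 90.7 CPM in CD1 (log2 -0.07 [-0.22, 0.07]). *Mmp28*, epilysin, had 25.4 CPM in NOD and 13.7 CPM in CD1, a log2 of 0.89 [0.59, 1.19]. The direction of *Mmp28* was not shared by the clusters, at 1.19 in the cluster led by *Kirrel3* and -0.51 [-1.43, 0.33] in the cluster led by *Mecom*. *Mmp12* had 2 UMIs in NOD and 153 in CD1 here, but 1 CD1 barcode held 122 of the 153. That barcode also held 122 endothelial and 31 macrophage marker UMIs among 31421 UMIs in all. *Mmp16* had 0 and 114 UMIs, at least 11.7-fold apart, with 43 of the 114 in 1 barcode. Both therefore rested on few barcodes, 20 for *Mmp12* and 25 for *Mmp16* of 2882 in CD1. Their CD1 levels here, 7.94 and 5.92 CPM, also lay under those of empty droplets, which held 89.3 and 72.4 CPM in CD1 and 11.4 and 0.20 CPM in NOD.

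The sheddases *Adam10* and *Adam17* differed little. *Adam17*, the enzyme that releases TNF, had 111 and 99.5 CPM in T-like (log2 0.15 [-0.15, 0.47]), 293 and 295 CPM in macrophage-like (-0.01 [-0.10, 0.08]) and 106 and 97.5 CPM in endothelial-like barcodes (0.12 [-0.01, 0.25]). In NK-like barcodes it was 132 CPM in NOD and 87.7 CPM in CD1, a log2 of 0.59 [0.38, 0.80], and it was higher in NOD in both NK-like clusters (0.56 and 0.70). *Adam10*, which cuts Notch and its ligands, had 188 CPM in NOD and 121 CPM in CD1 in T-like barcodes (0.63 [0.36, 0.92]) and 0.42 [0.09, 0.77] without the *Stab2* cluster. In macrophage-like barcodes it went the other way, with 177 CPM in NOD and 255 CPM in CD1 (-0.53 [-0.64, -0.41]) and -0.41 within the *Cx3cr1* cluster. In NK-like and endothelial-like barcodes the log2 of *Adam10* was 0.05 and -0.08, with intervals that held 0. None of these values reached 2-fold.

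*Adam19* led the ADAMs of T-like barcodes, at 395 CPM in NOD and 436 CPM in CD1 (-0.14 [-0.29, 0.01]), and made up 50.1% and 56.7% of the ADAM UMIs there. *Adam15*, which has roles in adhesion, was an endothelial-like gene with 205 CPM in NOD and 182 CPM in CD1 (0.17 [0.07, 0.26]). *Adam9* was highest in macrophage-like barcodes, with 74.98 CPM in NOD and 60.5 CPM in CD1 (0.31 [0.12, 0.50]). The sum of all ADAMs was 668 and 675 CPM in endothelial-like and 789 and 769 CPM in T-like barcodes. These abundant ADAMs thus lay within 2-fold in every lineage compared.

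*Adam8*, a leukocyte sheddase, was one of the few that differed. In NK-like barcodes it had 32 UMIs in NOD and 64 UMIs in CD1 (8.52 and 19.2 CPM), a log2 of -1.17 [-1.83, -0.54]. Within the *Xcl1* cluster it was 16.4 CPM in NOD and 28.3 CPM in CD1, a log2 of -0.79 [-1.59, -0.04]. In macrophage-like barcodes *Adam8* had 36 UMIs in NOD and 28 in CD1 (2.69 [1.93, 3.45]), with 21 of the 36 in 1 barcode and 27 in 3 barcodes of an unnamed cluster led by *S100a9*. *Adam12*, which is made by mesenchymal cells and some T cells, had 29.5 CPM in NOD and 67.4 CPM in CD1 in endothelial-like barcodes, a log2 of -1.19 [-1.43, -0.97]. It was found in 87 of 1059 NOD barcodes and 607 of 2882 CD1 barcodes. The endothelial-like clusters held different shares, with 34.7% of NOD and 6.87% of CD1 in the cluster led by *Kirrel3* and 11.2% and 46.95% in the cluster led by *Rbp7*. Within these and 2 other named clusters *Adam12* was lower in NOD, at -0.75 in the *Kirrel3*, -1.39 in the *Rbp7*, -1.56 in the *Ccdc85a* and -2.08 in the *Mecom* cluster. In the unnamed cluster led by *Rflnb*, which held 13.3% and 14.95% of the endothelial-like barcodes, it had 4 and 8 UMIs.

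In T-like barcodes *Adam12* had 45.8 CPM in NOD and 73.6 CPM in CD1 (-0.68 [-1.05, -0.30]), and without the *Stab2* cluster the sign turned, at 0.62 [-0.143, 1.499]. Its highest level was in an unnamed cluster led by *Scart1*, *Il23r* and *Abi3bp*, with 1101 CPM over all 189 NOD barcodes and 901 CPM over all 15 CD1 barcodes. *Adam12* was itself among that cluster's leading genes.

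*Adam22*, an ADAM with no zinc-binding site that serves as a receptor of LGI proteins in neurons, was the ADAM furthest below its CD1 level in macrophage-like barcodes. It had 34 UMIs in NOD and 1079 UMIs in CD1, or 8.70 CPM and 55.2 CPM, a log2 of -2.66 [-3.20, -2.17]. It was found in 13 of 691 NOD barcodes and 557 of 2882 CD1 barcodes. After thinning to 500 UMIs the shares were 0.579% and 2.08%, and in endothelial-like barcodes 0.661% and 0.486% carried it without thinning. Within the *Cx3cr1* cluster it was 5.41 CPM in NOD (8 of 247 barcodes) and 60.8 CPM in CD1 (508 of 1670 barcodes), a log2 of -3.49 [-4.40, -2.71]. Within the *Mki67* cluster it had 0 UMIs in NOD and 73 in CD1. In the unnamed cluster with *Scgb1b27* it had 79.4 and 87.4 CPM, a log2 of -0.14 [-1.10, 0.75], and in the *Aif1* cluster 1 UMI in each library. Of its chromosome neighbours in macrophage-like barcodes, *Sri* stood at 0.30 [0.16, 0.44], *Dbf4* at -0.68 [-1.33, -0.09] and *Slc25a40* at -0.57 [-1.18, -0.0035].

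*Adam22* went the other way in other cells. Over all its barcodes, the unnamed cluster led by *S100a9*, *Grm8* and *Plac8* held 165 CPM in 127 NOD barcodes and 12.4 CPM in 50 CD1 barcodes, a log2 of 3.73 [2.79, 4.87]. The related *Adam23*, also without the site, had 274 CPM in NOD and 30.4 CPM in CD1 in that cluster, a log2 of 3.17 [2.56, 3.85]. Both were found in few of its barcodes, 38 and 40 of 127 in NOD and 3 and 3 of 50 in CD1. In the 20 dendritic-like NOD barcodes *Adam22* had 59 UMIs and *Adam23* 76, against 3 and 7 in 3 CD1 barcodes. In T-like barcodes *Adam23* had 125 UMIs in 9 NOD barcodes, 60 of them in 1, and 0 in CD1. *Adam22* had 60 UMIs there in NOD, 27 of them in 1 barcode, and 2 in CD1 (1.16 [-0.75, 4.24]).

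*Adam33*, a protease of mesenchymal cells, had 39 UMIs in NOD and 30 in CD1 in macrophage-like barcodes (2.70 [1.98, 3.44]), with no barcode above 3 UMIs in either library. Within the *Cx3cr1* cluster it was 11.7 CPM in NOD and 1.52 CPM in CD1. *Adam3*, a sperm protein without the site, had 2 and 48 UMIs there (-2.26 [-5.35, -0.33]).

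Among the ADAMTSs, *Adamts14* marked NK-like barcodes of both libraries. It had 705 UMIs in NOD and 306 UMIs in CD1, or 188 CPM and 91.9 CPM, a log2 of 1.03 [0.83, 1.23]. It was found in 255 of 438 NOD barcodes and 146 of 295 CD1 barcodes, against 0.283% and 0.0694% of endothelial-like barcodes. Within clusters the difference was smaller and under 2-fold. In the NK-like barcodes of the *Klra4* cluster it was 239 CPM in NOD and 134 CPM in CD1 (0.83 [0.58, 1.09]), and in those of the *Xcl1* cluster 105.5 and 68.9 CPM (0.61 [0.26, 0.97]). *Prf1*, the perforin gene that lies beside it on the reference chromosome, had 298 and 136 CPM in NK-like barcodes, a log2 of 1.13 [0.97, 1.29].

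*Adamts6*, a relative of *Adamts10* that acts on fibrillin microfibrils, was the ADAMTS of T-like barcodes and made up 85.1% of the ADAMTS UMIs there in NOD. It had 4095 UMIs in NOD and 107 UMIs in CD1, or 331 CPM and 116 CPM, a log2 of 1.52 [1.24, 1.81]. Without the *Stab2* cluster the log2 was 1.12 [0.81, 1.45]. A cluster led by *Ctla4* and *Ikzf2*, genes of regulatory T cells, held 29.2% of NOD and 3.39% of CD1 T-like barcodes. Its T-like barcodes had 915 CPM of *Adamts6* in NOD (554 barcodes), and the 4 of CD1 held 32 UMIs (1019 CPM). *Adamts6* was itself among that cluster's leading genes. In the cluster led by *Lef1*, which held 37.4% and 39.0%, *Adamts6* had 103 CPM in NOD and 131 CPM in CD1 (-0.35 [-0.79, 0.13]). In the clusters led by *Cd8a* and *Insyn2b* NOD had 155 and 40 UMIs (56.9 and 162 CPM) and CD1 only 5 and 1, too few to compare.

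In endothelial-like barcodes *Adamts9*, which cuts versican, led with 241 CPM in NOD and 280 CPM in CD1 (-0.21 [-0.30, -0.13]). *Adamts1*, another versican protease, had 86.7 CPM in NOD and 137 CPM in CD1 (-0.66 [-0.80, -0.52]), but within the 4 named clusters its log2 lay between -0.70 and -0.060, and in the cluster led by *Rflnb* it was 0.39 [-0.39, 1.13]. *Adamts12*, a protease of cartilage oligomeric matrix protein, had 13 and 116 UMIs, a log2 of -1.46 [-2.41, -0.63]. *Adamts4*, an aggrecanase, had 39 and 30 UMIs, a log2 of 2.08 [1.35, 2.81], and was the 1 member at least 2-fold higher in NOD there. *Adamts6* lay just under 2-fold, with 32.0 CPM in NOD and 16.03 CPM in CD1, under the 88.6 and 26.4 CPM of empty droplets.

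Of the inhibitors, *Timp3* and *Timp2* held nearly all TIMP UMIs. *Timp3* had 743 CPM in NOD and 1103 CPM in CD1 in endothelial-like barcodes, a log2 of -0.57 [-0.62, -0.52], and was found in 828 of 1059 and 2452 of 2882 barcodes. Within the clusters the difference was smaller, at -0.14 in the *Mecom*, -0.18 in the *Kirrel3*, -0.37 in the *Rbp7* and -0.50 in the *Ccdc85a* cluster. In the unnamed cluster led by *Rflnb* the direction was the opposite, with 1163 CPM in NOD and 973 CPM in CD1 (0.26 [0.03, 0.48]). *Timp2* led in macrophage-like barcodes with 110 CPM in NOD and 141 CPM in CD1 (-0.36 [-0.51, -0.22]).

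In T-like barcodes *Timp2* had 377 UMIs in NOD and 10 UMIs in CD1 (30.5 and 10.8 CPM), a log2 of 1.49 [0.60, 2.57]. Without the *Stab2* cluster the log2 of *Timp2* was 0.87 [-0.07, 2.01], and within the *Lef1* cluster it was -0.20 [-1.39, 1.30]. *Timp1*, which is induced by inflammation in many mesenchymal cells, had 19 UMIs in all of NOD and 16 in CD1, and 11 of the 19 lay in fibroblast-like barcodes. *Timp4* had 11 and 9 UMIs, 10 and 5 of them in endothelial-like barcodes. Neither reached the minimum in any lineage.

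**Figure D4:**
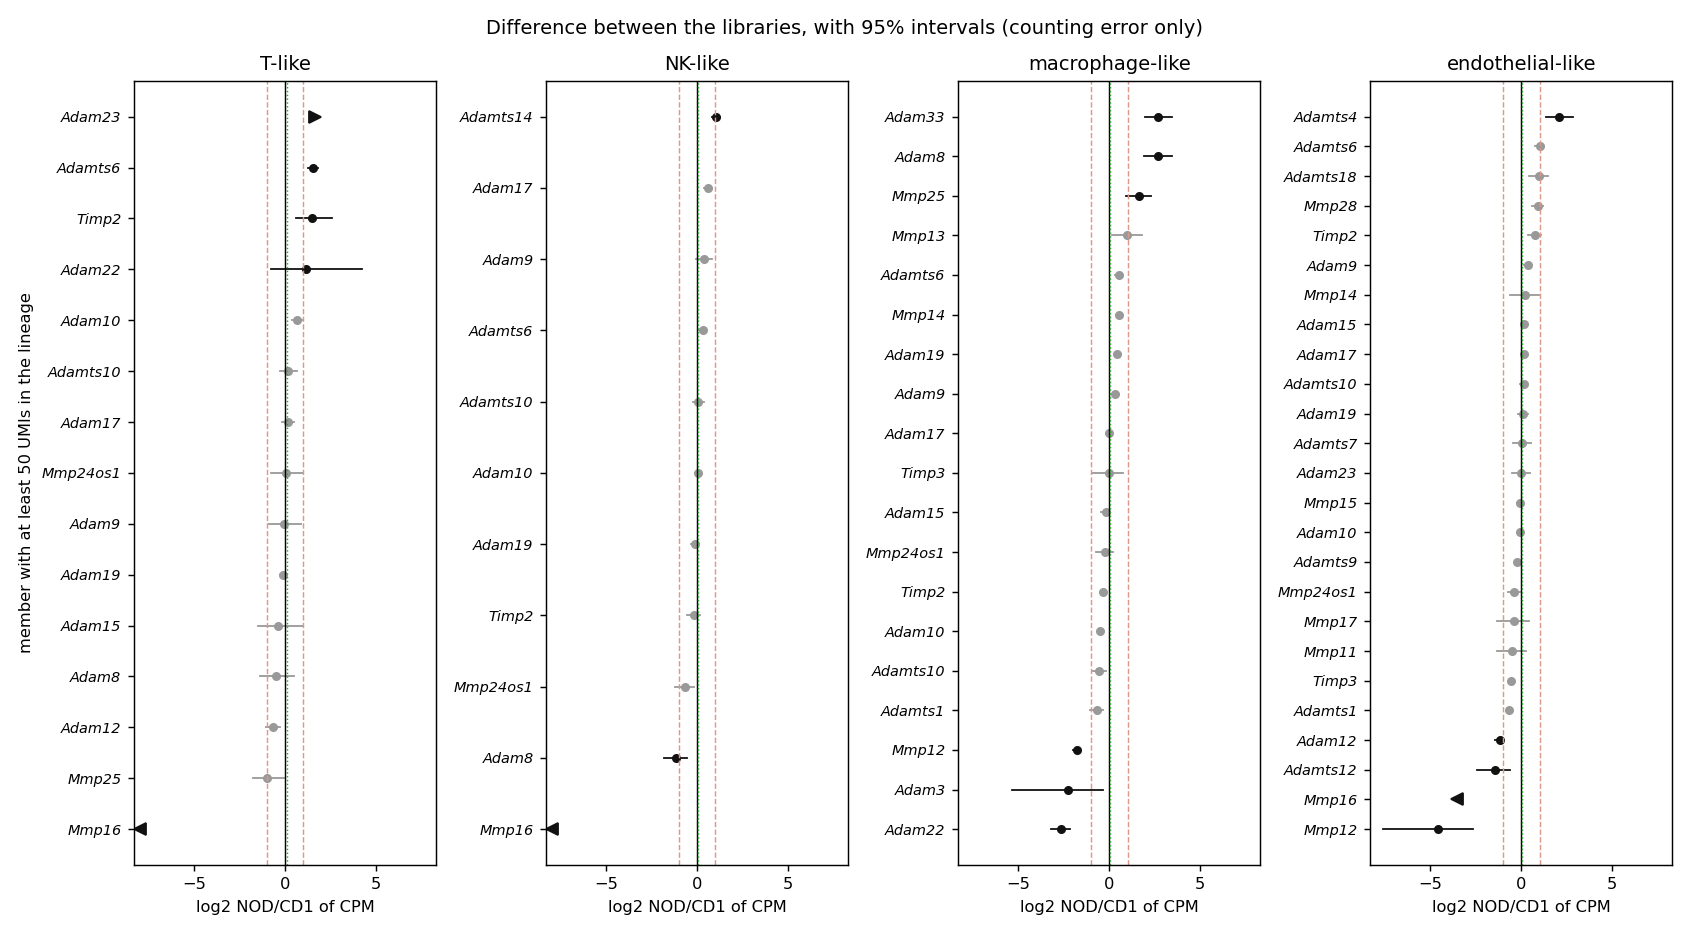
Log2 of NOD over CD1 (CPM) for each member with at least 50 UMIs in T-like, NK-like, macrophage-like and endothelial-like barcodes, with exact 95% intervals. Dashed lines mark 2-fold, the dotted green line the median of all genes tested, black symbols the members at least 2-fold apart, and triangles bounds where 1 library had no UMI (those of *Mmp16* in T-like and NK-like barcodes lie beyond the axis, at -12.19 and -9.46). Most members sit between the dashed lines.

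Counted over the families, 15 members had at least 50 UMIs in T-like barcodes, 4 at least 2-fold higher in NOD (*Adam22*, *Adam23*, *Adamts6* and *Timp2*) and 1 lower (*Mmp16*). Of all 10828 genes tested there, 9.83% were at least 2-fold higher and 4.41% lower. In NK-like barcodes 1 of 11 members was higher (*Adamts14*) and 2 lower (*Mmp16* and *Adam8*), against 3.38% and 2.7% of 9407 genes. In macrophage-like barcodes 3 of 19 were higher (*Adam33*, *Adam8* and *Mmp25*) and 3 lower (*Adam22*, *Adam3* and *Mmp12*), against 4.98% and 3.72% of 12200 genes. In endothelial-like barcodes 1 of 25 was higher (*Adamts4*) and 4 lower (*Adam12*, *Adamts12*, *Mmp12* and *Mmp16*), against 4.91% and 2.63% of 12233 genes. The median log2 of the members was 0.02, 0.05, -0.04 and -0.01 in the 4 lineages, beside 0.12, 0.03, 0.04 and 0.06 for all genes. The 4 higher in T-like barcodes include *Adam22* and *Adam23*, and the 4 lower in endothelial-like barcodes *Mmp12* and *Mmp16*, which rested on few barcodes there.

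Fibroblast-like barcodes carried the highest summed levels of MMPs (1582 CPM in NOD and 929 in CD1) and of ADAMTSs (4689 and 3212 CPM). With 60 barcodes in NOD and 18 in CD1, the values of fibroblast-like barcodes are given side by side without a comparison. *Adamts12* led with 1430 UMIs in NOD and 204 UMIs in CD1 (2402 and 1354 CPM), found in 56 of 60 and 14 of 18 barcodes. Its level per barcode ran from 0 to 5652 CPM with a median of 2199.6 in NOD, and from 0 to 4719.8 CPM with a median of 1174 in CD1. The barcodes of the 2 libraries thus overlapped over nearly their whole range. Of these barcodes 45 and 9 lay in the cluster led by *Dcn*, and 15 and 9 in a mural-like cluster led by *Robo2*. Over all their barcodes, the *Dcn* cluster held 2498 and 1340.4 CPM of *Adamts12* and the *Robo2* cluster 737 and 141 CPM. *Adamts5* had 1161 and 1101 CPM, in 47 and 11 barcodes, with medians of 617 and 526 CPM per barcode. *Mmp2* had 628 and 398 CPM, in 45 and 9 barcodes, and *Mmp14*, which activates it, 430.0 and 192 CPM, in 40 and 7 barcodes. The inhibitors stood at 519 and 723 CPM for *Timp2* and 185 and 438 CPM for *Timp3*.

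Several fibroblast-like levels rested on few barcodes. *Mmp3*, stromelysin-1, had 158 UMIs in NOD, 70 of them in 1 barcode and all in 15 of 60, and 10 UMIs in CD1. *Adam12* had 46 UMIs in CD1, 40 of them in 1 barcode. *Mmp19* (74 and 6 UMIs), *Adamts15* (73 and 6 UMIs) and *Adamts4* (49 and 1 UMI) were found in 31, 28 and 19 of the NOD barcodes and in 3, 3 and 1 of the CD1 barcodes. *Adamts9* had 246 and 30 UMIs, *Adamts1* 139 and 19, *Adam19* 287 and 54 and *Adamts2*, which trims procollagen, 63 and 16. The mural-like barcodes, 12 in each library, held *Adamts12* in 11 and 3 barcodes (95 and 8 UMIs) and *Timp3* in 9 and 7 (88 and 32 UMIs).

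**Figure D5:**
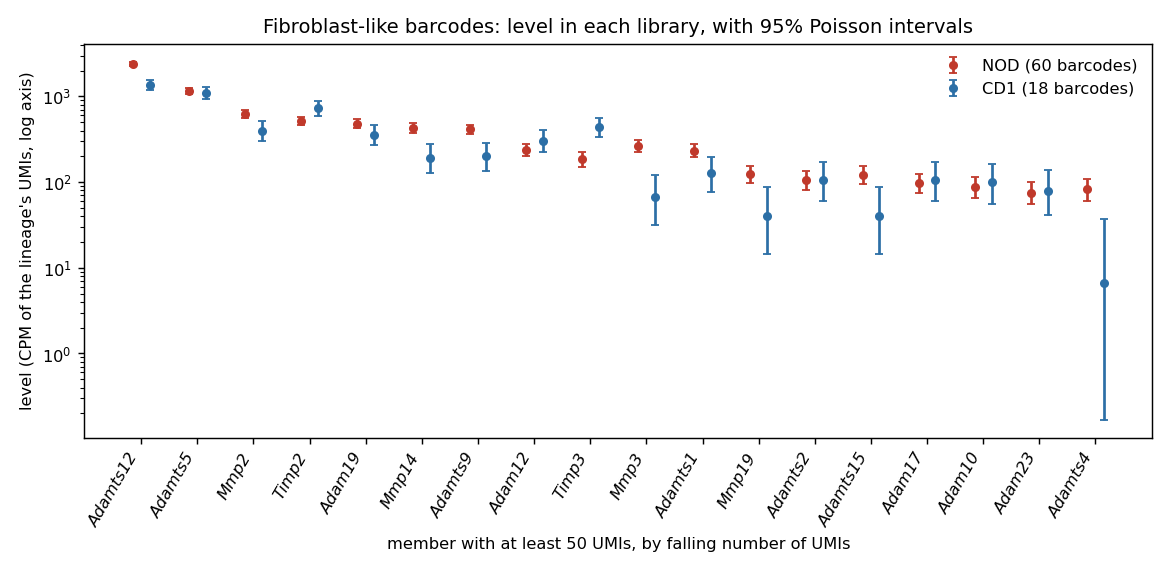
Level (CPM, log axis) of the 18 members with at least 50 UMIs in fibroblast-like barcodes, NOD (60 barcodes, red) and CD1 (18 barcodes, blue), with exact 95% Poisson intervals. *Adamts12* and *Adamts5* lie above 1000 CPM in both libraries, and the intervals of the low CD1 values are wide.

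Other genes of the same pathway were counted from 5 lists. The shares of all genes at least 2-fold higher and lower, beside which these counts stand, were 9.83% and 4.41% in T-like, 3.38% and 2.7% in NK-like, 4.98% and 3.72% in macrophage-like and 4.91% and 2.63% in endothelial-like barcodes. These shares cover all barcodes of a lineage. None was taken without the *Stab2* or *S100a9* cluster, so the counts without those clusters have no share of all genes beside them. Of 13 partners of the sheddases (iRhoms and their binding protein FRMD8, tetraspanins and proprotein convertases), 2 of 7 with 50 UMIs were at least 2-fold higher in NOD in T-like barcodes, *Frmd8* (1.10) and *Tspan5* (1.27), and none lower. Without the *Stab2* cluster 0 of 7 were, at 0.80 and 0.54 for these. *Rhbdf2*, the iRhom that carries ADAM17 to the surface of leukocytes, was the 1 of 9 higher in macrophage-like barcodes, with 29.2 CPM in NOD and 14.2 CPM in CD1. None of 5 in NK-like and none of 10 in endothelial-like barcodes reached 2-fold.

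Of 24 proteins known to be shed, 6 of 16 were higher and 2 lower in NOD in T-like barcodes. *Lag3*, an inhibitory receptor that ADAM10 and ADAM17 cut, had 413 UMIs in NOD and 1 in CD1, and *Il6ra* had 91.9 and 33.5 CPM, while *Jag1* had 3.15 and 28.1 CPM and *Areg* 4.12 and 27.0 CPM. *Tnfrsf1a* (1.78), *Havcr2* (1.81), *Notch1* (1.03) and *Vcam1* (1.93, 51 and 1 UMIs) were the others higher. Without the *Stab2* cluster 2 of 13 were higher, *Lag3* and *Tnfrsf1a* (1.01 [-0.37, 2.90]), and 0 lower. In NK-like barcodes *Icosl*, the ligand of ICOS, had 46 UMIs in NOD and 18 in CD1 (1.18 [0.36, 2.05]), and *App* had 32 and 64 (-1.17 [-1.83, -0.54]). In macrophage-like barcodes 3 of 17 were higher and none lower, *Vcam1* with 45.04 CPM in NOD and 2.76 CPM in CD1, *Cd44* (1.38) and *Lag3* (1.46). In endothelial-like barcodes 3 of 18 were higher and none lower, *Vcam1* (1.66), *Notch2* (1.32) and *Cd44* (1.38).

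Of 12 matrix substrates, 2 of 6 were higher and 3 lower in NOD in macrophage-like barcodes. *Fn1*, fibronectin, had 59.4 CPM in NOD and 3.02 CPM in CD1 (4.30 [3.88, 4.74]) and *Vcan*, versican, 34.3 and 2.05 CPM (4.07 [3.55, 4.61]). The cluster led by *S100a9*, with *Fn1* among its leading genes, held 2.75% of NOD and 0.451% of CD1 macrophage-like barcodes. Without those 19 and 13 barcodes neither *Fn1* nor *Vcan* had 50 UMIs left, so 0 of 4 were higher and 3 lower. *Col4a1* (-1.18), *Col4a2* (-1.50) and *Hspg2* (-1.53), of the basement membrane, had at most 11 UMIs in NOD. *Vcan* was the 1 of 11 higher in endothelial-like barcodes (1.58) and *Lamc1* the 1 with 50 UMIs, and higher, in T-like barcodes (1.09, and 0.73 without the *Stab2* cluster). The 1 matrix gene with 50 UMIs in NK-like barcodes was within 2-fold.

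Of 7 genes of plasminogen activation, *Anxa2* was higher in NOD in macrophage-like (2.53) and T-like barcodes (1.43) and *S100a10* in macrophage-like barcodes (1.56), out of 4 and 2 with 50 UMIs. *Anxa2* was at 0.95 [0.30, 1.57] without the *S100a9* cluster in the former and at 0.68 without the *Stab2* cluster in the latter, and no gene of the list then reached 2-fold in either. None of 2 in NK-like and 5 in endothelial-like barcodes reached 2-fold. Of 14 other inhibitors and ADAMTS-like proteins, *Serpine2* (1.05) and *Adamtsl1* (1.35) were higher and *Adamtsl2* (-1.77) lower in NOD in endothelial-like barcodes. None of 1 in T-like, 1 in NK-like and 3 in macrophage-like barcodes reached 2-fold.

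In the 4 lineages compared, the summed markers of another lineage were highest for T markers in NK-like barcodes. They reached 596 CPM in NOD and 419.7 CPM in CD1. The markers of the lineage itself summed to at least 3910.0 CPM. Lineages were assigned by the share of such markers among the marker UMIs, which by itself keeps the sums of other lineages low. The sums therefore cannot show how free the barcodes were of RNA from other cells. The 10 T markers summed to 54.5 CPM in NOD and 5.88 CPM in CD1 in macrophage-like barcodes and to 92.1 and 4.72 CPM in endothelial-like barcodes. The 10 macrophage markers summed to 18.0 and 32.4 CPM in T-like, 13.04 and 39.95 CPM in NK-like and 62.4 and 96.1 CPM in endothelial-like barcodes. Their part in the values above was not tested. Empty droplets held 11.4 CPM of *Mmp12* in NOD and 89.3 CPM in CD1, and 81.0 and 280 CPM of *Timp3*.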

How the data were processed

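The authors deposited raw UMI counts per gene and barcode of 2 single-cell libraries (NOD and CD1, 1298073 and 1331542 barcodes). The submitters' processing notes name Cell Ranger 8.0.0, Seurat 5.0.1, R 4.3.1 and GRCm39. The sources used here do not state whether intronic reads were counted. UMI counts were summed per lineage and library in Python 3.11.15 (numpy 2.4.6, scipy 1.17.1, pandas 2.3.3) and clustered with scanpy 1.11.5. Figures were drawn with matplotlib 3.10.9. Clusters led by gland secretory genes were left unnamed, a choice made after seeing them. CPM has exact Poisson intervals, log2 ratios conditional binomial intervals and shares Clopper-Pearson intervals. Only the intervals of the log2 ratios were tested on simulated data, which were drawn as Poisson counts. The members, marker lists and pathway lists were chosen with earlier results of these data known. Genes named are the members at least 2-fold apart with an interval without 0, the 3 of each family with most UMIs in a lineage, the TIMPs, *Adam10*, *Adam17*, *Adamts5* and *Adamts12*, those highest in small lineages and pathway genes at least 2-fold apart. Others named were chosen after their values were seen. A few pathway genes are not reported here. Doublets were kept, and removed in an alternative (338 and 394 barcodes). Other alternatives changed the barcode filters, marker share, lineage source, scaling, minimum and free RNA. Chromosome neighbours come from RefSeq (GRCm38.p6) by name.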

Additional observations from a re-analysis of the deposited data

Results flagged for a closer look

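For 4 members the log2 of NOD over CD1 lay above 0 in 1 lineage and below 0 in another, each with an interval that left out 0. The difference was not tested, because each lineage has 1 library per strain. *Adam10* was higher in NOD in T-like barcodes (0.63) and lower in macrophage-like barcodes (-0.53), 1.16 apart on the log2 scale. *Adam8* was higher in macrophage-like (2.69) and lower in NK-like barcodes (-1.17), 3.86 apart. Over the alternatives *Adam8* ranged from 0.96 to 3.48 in macrophage-like and from -1.47 to -0.14 in NK-like barcodes. It fell under 2-fold with the mean of barcode CPM in the former. In the latter it did so with 90% of marker UMIs and with lineages from clusters. *Mmp25* was higher in macrophage-like (1.62) and lower in T-like barcodes (-0.98), 2.60 apart. *Timp2* was higher in T-like (1.49) and lower in macrophage-like barcodes (-0.36), 1.86 apart. Without the cluster led by *Stab2* the T-like log2 of *Mmp25* was -0.68 [-1.78, 0.67] and that of *Timp2* 0.87 [-0.07, 2.01], both with intervals that held 0, whereas *Adam10* stood at 0.42 [0.09, 0.77].

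The barcodes given no lineage entered the whole-library values but no comparison within a lineage assigned by marker UMIs. Of 26 members with at least 50 UMIs there, 6 were more than 2-fold higher in NOD and 11 more than 2-fold lower. The share of all genes that far apart in these barcodes was not taken, so the counts cannot be read as particular to the members. The log2 was 1.56 [1.31, 1.81] for *Adam12*, 1.04 [0.92, 1.17] for *Adam19*, 2.45 [2.04, 2.89] for *Adam23*, 1.12 [0.67, 1.59] for *Adam8*, 2.43 [2.23, 2.65] for *Adamts6* and 1.08 [0.52, 1.68] for *Mmp25*. The lower ones were *Mmp16* (-11.75, with 1 UMI in NOD), *Mmp12* (-3.20), *Timp3* (-3.06), *Adamts9* (-2.60), *Adamts1* (-2.50), *Adam15* (-2.10), *Adamts18* (-2.10), *Mmp15* (-2.02), *Adamts17* (-1.87), *Mmp14* (-1.43) and *Timp2* (-1.23). Of these barcodes, 619 in NOD and 84 in CD1 carried T with NK markers as their leading pair and 16 in NOD and 137 in CD1 endothelial with macrophage markers, and the part of the cell mix in these values was not tested. With 1 sample per group, samples far from the others could not be looked for.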

How the results depend on the processing

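No paired analysis was possible because each strain has 1 library, and no library could be left out for the same reason. Over all alternatives, 638 values of single members were obtained, of which 575 stayed within the interval of the reported value, 61 moved outside it and 2 changed sign after being 2-fold apart. Where both libraries came to 3 UMIs or fewer, or a bound fell on the wrong side, no value was given. Of 172 values of members reported at least 2-fold apart, 153 stayed so and 19 did not. *Mmp12* in macrophage-like barcodes ranged from -2.04 to -1.72, *Adam22* there from -3.75 to -2.21, *Mmp16* in NK-like barcodes from -10.62 to -7.77 and *Adamts6* in T-like barcodes from 1.12 to 2.01. *Adamts14* in NK-like barcodes ranged from 0.39 to 1.12 and fell under 2-fold with 90% of marker UMIs, with lineages from clusters and with median-of-ratios scaling. *Adam22* in T-like barcodes turned to -0.57 with 90% of marker UMIs and to -0.19 with the mean of barcode CPM, which weights barcodes equally.

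The counts of members at least 2-fold apart are small and moved as follows. The share of all genes was not taken under these alternatives, so the moved counts cannot be read as particular to the members. In T-like barcodes the 4 higher in NOD became 2 without doublets, with 90% of marker UMIs, with lineages from clusters, with the mean of barcode CPM and without the *Stab2* cluster, an alternative chosen after seeing the data. The 1 lower became 3 at a minimum of 20 UMIs, 5 with no minimum and 1 CPM added, 2 without doublets, 2 with median of ratios, 3 with the mean of barcode CPM and 2 with 10% of free RNA subtracted. In NK-like barcodes the 1 higher became 3 with 1 CPM added and 0 with 90% of marker UMIs, lineages from clusters or median of ratios, and the 2 lower became 4 with 1 CPM added and 1 with lineages from clusters. In macrophage-like barcodes the 3 lower became 5 at a minimum of 20 UMIs and the 3 higher became 5 with lineages from clusters. In endothelial-like barcodes the 1 higher became 4 at a minimum of 20 UMIs, with the mean of barcode CPM or with free RNA subtracted, 3 with 1 CPM added, and 2 at 1000 UMIs and 500 genes, without doublets, with 90% of marker UMIs or with lineages from clusters. The 4 lower became 2 without doublets, with the mean of barcode CPM or with free RNA subtracted.

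Of the family sums, that of the MMPs in T-like barcodes (-5.36) was -4.91 with 90% of marker UMIs, -2.60 with lineages from clusters, -5.58 with free RNA subtracted and -2.46 without the *Stab2* cluster. The largest part of that sum in T-like barcodes was *Mmp24os1* in NOD (49.7%) and *Mmp16* in CD1 (95.9%). The ADAMTS sum there (1.19) was 1.62 with 90% of marker UMIs and 0.88 without the *Stab2* cluster. With lineages from clusters the ADAMTS sum in NK-like barcodes (0.58) was 0.35 and the MMP sum in macrophage-like barcodes (-0.67) was -0.85. With the mean of barcode CPM the ADAM sum in macrophage-like barcodes (-0.16) was -0.37 and the TIMP sum in endothelial-like barcodes (-0.55) was -0.47, and with median of ratios the latter was -0.60 and the ADAM sum there (-0.01) was -0.070. Leaving out the *S100a9* cluster from macrophage-like barcodes was also chosen after seeing the data. The cause of these moves was not tested. Depth limits the members under 50 UMIs in a lineage and all of the fibroblast-like values.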

Other observations

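The 767 B-like barcodes of NOD are described alone, since the 8 of CD1 were too few to set beside them. *Adamts6* led with 777 UMIs (175 CPM), found in 334 of the 767 barcodes, followed by *Adam10* (146 CPM), *Adam17* (123 CPM), *Adam19* (103 CPM) and *Adam9* (60.6 CPM). A B-like cluster of 21 NOD barcodes and 0 CD1 barcodes, led by *Bank1*, *Pax5* and *Adamts6*, held 951 CPM of *Adamts6* in 95.2% of its barcodes. *Gpm6b*, a leading gene of the *Ctla4* cluster of T-like barcodes, was also among its leading genes, and its median depth was 16138 UMIs against 6684 in the larger B-like cluster. In plasma-like barcodes *Adam10* had 101 CPM in NOD and 98.03 CPM in CD1, and *Adamts14* was found in 6 of 51 and 6 of 12 barcodes. Of these, 11 of the 51 and 11 of the 12 were called doublets.

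The cycling cluster led by *Mki67* held 74 NOD barcodes, 28 macrophage-like and 27 T-like, and 127 CD1 barcodes, 116 macrophage-like and 1 T-like. In its macrophage-like barcodes *Adamts6* had 29 UMIs in 8 of 28 in NOD and 36 UMIs in 20 of 116 in CD1, a log2 of 1.90 [1.14, 2.65]. Empty droplets also held more *Adamts6* in NOD, 88.6 CPM against 26.4 CPM in CD1. The part of free RNA in this log2 was not tested. In the unnamed cluster led by *Stab2*, *Adam12* had 221 CPM in NOD and 93.8 CPM in CD1, a log2 of 1.24 [0.82, 1.66].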
